A study of Mus musculus with 4 samples.

Results

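The 32 genes described here carry glucose from the cell surface to pyruvate, lactate or the mitochondrion, and they were read as unique molecular identifiers (UMIs) in single wells of mouse heart cells. They were chosen by name, as 3 glucose transporters, 3 hexokinases, the enzymes of glycolysis with their isoforms, 4 PFKFB enzymes, 4 genes of the pyruvate dehydrogenase step and 2 lactate carriers. All 32 had a gene column, out of 29245 in the deposited tables, of which 29097 had a UMI in the wells kept (at least 10000 UMIs and 300 genes). Levels are CPM, the UMIs of a gene scaled to a total of 1000000 UMIs outside mitochondrial (mt-), Hba- and Hbb- genes. A UMI count tallies tagged molecules, so levels of different genes were set side by side without a division by length.

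The study profiled hearts of 2 Mst1/2-deficient (KO) and 2 wild-type (WT) mice of strain C57BL/6, called KO1, KO2, WT1 and WT2 after the well reports. Low-speed centrifugation parted each heart into a cardiomyocyte (CM) and a non-cardiomyocyte (NCM) fraction. Each of the 4 libraries was a chip with 1 genotype and 1 fraction from both of its animals, so each combination of genotype and fraction coincides with a chip, and the part of the chip in a difference between them cannot be told apart. The allele, any Cre driver, the age, and any injury or drug are not given in the labels used here. The animal was taken as the replicate, with 2 per genotype, and wells of 1 animal were summed.

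Glycolysis splits a hexose into pyruvate in the cytosol. Hexokinase, phosphofructokinase and pyruvate kinase catalyse its irreversible steps, and PFKFB enzymes set the level of a regulatory fructose bisphosphate, distinct from the one that aldolase cleaves, that activates phosphofructokinase. Several steps have one isoform made in most cells and another that is enriched in striated muscle: Pgam1 and Pgam2 for phosphoglycerate mutase, Eno1 and Eno3 for enolase, Pfkp or Pfkl and Pfkm for phosphofructokinase. Ldha and Ldhb encode the subunits of lactate dehydrogenase, and the Ldhb form is the major one in the heart, where lactate is taken up and oxidised. Slc2a1 (GLUT1) carries basal glucose uptake, while Slc2a4 (GLUT4) moves to the surface of muscle and fat cells in response to insulin.

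The filter kept 3990 of 4275 wells, 1133 in the CM fraction and 2857 in the NCM fraction, with 40 control wells left aside. The UMIs outside mitochondrial and haemoglobin genes ran from 13126144 (KO1) to 58208202 (KO2) per animal in CM wells and from 26447307 (KO1) to 93816921 (WT2) in NCM wells. Mitochondrial genes took 36.4 to 47.2% of UMIs in KO and 35.7 to 38.1% in WT animals in CM wells, and 36.5 to 58.1% in KO against 7.45 to 11.2% in WT animals in NCM wells. The 8 cardiomyocyte markers, none at 0 in any animal, summed to 2.45, 6.21, 4.51 and 6.27% of the other UMIs in CM wells of KO1, KO2, WT1 and WT2, against 0.212, 0.518, 0.0991 and 0.258% in their NCM wells. Each pair of libraries shared 60 to 400 well barcodes. Stk4, the gene of Mst1, had 17.9 and 9.31 CPM in KO1 and KO2 CM wells, against 32.3 and 14.2 in WT1 and WT2, and 45.8 and 37.5 CPM in KO NCM wells, against 53.1 and 47.3 in WT NCM wells. Stk3, the gene of Mst2, had 31.2 and 11.9 CPM in KO1 and KO2 CM wells, against 12.7 and 13.8 in WT1 and WT2, and 29.0 and 26.3 in KO NCM wells, against 23.5 and 38.6 in WT NCM wells. Neither kinase passed edgeR's test in either fraction (log2 KO minus WT of −0.90 with SE 0.53 and −0.44 with SE 0.28 for Stk4 in CM and NCM wells, adjusted p 0.999 and 0.559). Counts per gene do not show whether transcripts carry a deletion, so the genotype labels could not be checked from them.

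The columns of 7 genes have near-identical copies elsewhere in the genome, which bears on how their levels can be read. Of the UMIs of each gene and its copies (at least 95% identity over 200 bases of a transcript), copies held 96.4% for Gapdh, 94.4% for Pgam1, 77.7% for Pgk1, 64.8% for Eno1, 11.1% for Ldhb, 8.26% for Gpi1 and 0.424% for Ldha. Gapdh had 83 such copies. The column of Pgam1 held 4863 UMIs and that of Pgam1-ps2 82119. The columns of Pgk1 and Eno1 held 27782 and 78085 UMIs, against 96585 and 144011 on their 2 copies each. A level of Gapdh, Pgam1, Pgk1 or Eno1 is therefore uncertain by itself, and each is given below also with its copies added, an alternative chosen after seeing the data. By the same rule the other 25 genes had no copy, among them Pgam2, Eno3, Pkm, Aldoa, Pfkm and the 3 glucose transporters.

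The coding sequences show how close each copy lies to its gene, and how far the muscle isoform lies from both. The first 60 coding bases of Pgam1 (GRCm38, the build mm10; gene at chr19:41911923-41918660, plus strand), of its copy Pgam1-ps2 (chr7:27469771-27470535, minus strand) and of Pgam2 (chr11:5801640-5803733, minus strand) are given with letters that differ from Pgam1 in capitals.
Pgam1: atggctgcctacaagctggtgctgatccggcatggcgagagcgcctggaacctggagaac
Pgam1-ps2: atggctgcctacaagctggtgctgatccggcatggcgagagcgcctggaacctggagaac
Pgam2: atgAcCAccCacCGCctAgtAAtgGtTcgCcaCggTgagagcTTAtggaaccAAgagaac
Over all 765 coding bases Pgam1-ps2 differed from Pgam1 at 0. Pgam2 differed at 195 of 762 aligned bases, an identity of 74.4%, with 20 of them in the stretch shown. Enolase is shown at coding bases 696 to 755 of Eno1 (chr4:150236721-150248879, plus strand), its copy Gm4735 (chr2:80837141-80838442, plus strand) and Eno3 (chr11:70657202-70662513, plus strand), again with letters that differ from the first line in capitals.
Eno1: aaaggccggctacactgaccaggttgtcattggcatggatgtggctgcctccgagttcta
Gm4735: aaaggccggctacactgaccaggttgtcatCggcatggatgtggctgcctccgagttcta
Eno3: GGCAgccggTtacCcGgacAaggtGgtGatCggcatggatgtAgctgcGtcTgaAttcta
Gm4735 differed from Eno1 at 5 of 1302 coding bases (99.6% identical), and Eno3 at 304 of 1305 (76.7% identical).

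The set took more of the transcriptome in the CM than in the NCM fraction in every animal. Summed over the 32 genes, it made up 1.07, 1.84, 1.35 and 1.43% of the other UMIs in CM wells of KO1, KO2, WT1 and WT2, against 0.394, 0.463, 0.333 and 0.369% in their NCM wells. Pgam2, Ldhb, Aldoa and Eno3 had the highest mean levels in the CM fraction, and Ldha and Aldoa in the NCM fraction. In edgeR's quasi-likelihood test with animal as a block, 20 of the 32 genes were higher and 1 was lower in the CM fraction at a Benjamini-Hochberg adjusted p under 0.05, where 9.46% of all 15439 genes tested were higher and 6.61% lower. The median log2 difference, CM minus NCM, was 1.27 over the 32 genes and −0.22 over all genes tested. These log2 differences use TMM scaling; with library totals in its place the median of all genes moved to −0.76, and 16 of the 32 genes were higher and 3 lower, while over all genes the calls went to 1052 higher and 2974 lower, against 1460 and 1021 with TMM. In a bulk sum, fewer cells of a type and less RNA per cell cannot be told apart.

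**Figure D1:**
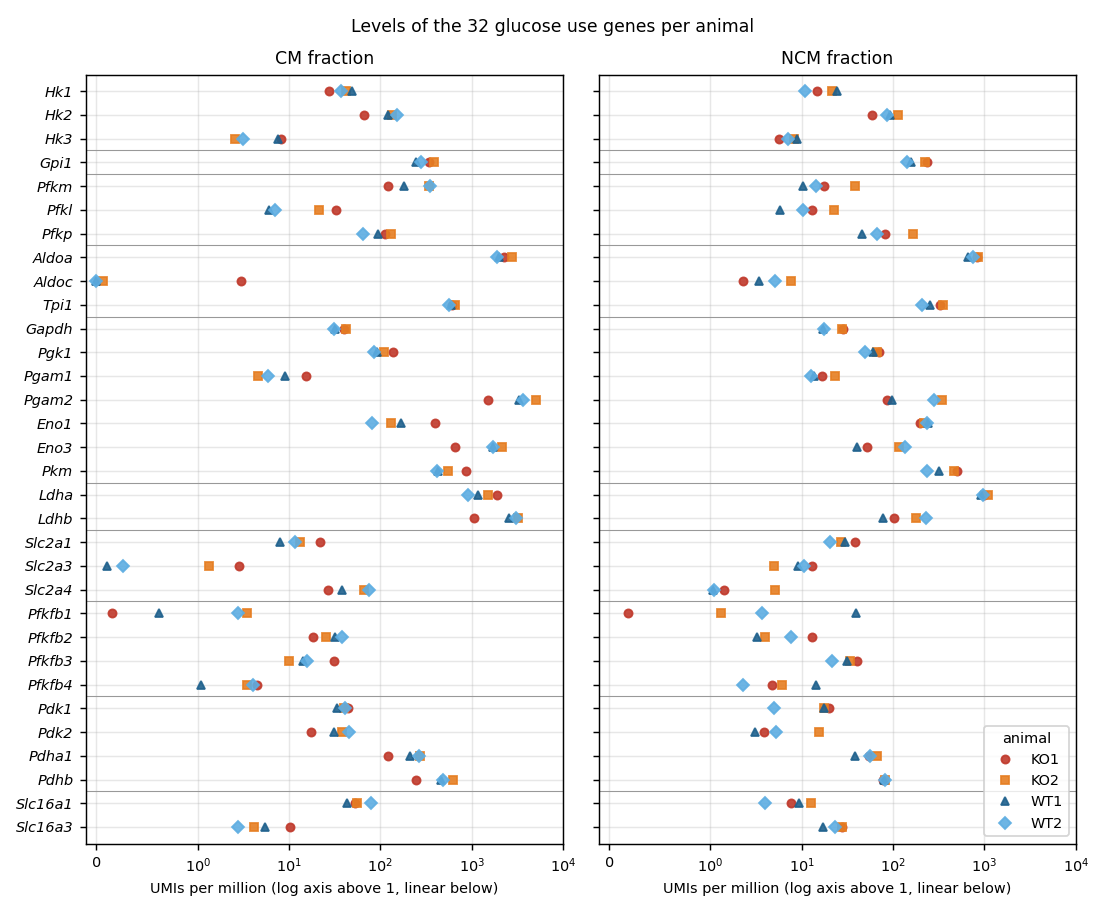
Level (CPM) of each of the 32 genes in CM wells (left) and NCM wells (right), with 1 point per animal and lines between functional groups; the axis is logarithmic above 1 and linear below. Pgam2 lies between 1488 and 5089.7 CPM in CM wells and between 86.5 and 344 in NCM wells, whereas Ldha lies between 919.6 and 1877 in CM wells and between 904 and 1092 in NCM wells.

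Among the glucose transporters, the insulin-responsive Slc2a4 had the highest TMM-scaled log2 difference, CM minus NCM, of all 32 genes. It had 26.4, 66.3, 38.1 and 74.2 CPM in CM wells of KO1, KO2, WT1 and WT2, against 1.40, 5.17, 1.06 and 1.11 in their NCM wells. Every CM value exceeded every NCM value (log2 5.32, SE 0.47, edgeR adjusted p 0.000245). Slc2a1, the basal transporter, had 22.1, 13.1, 8.03 and 11.6 CPM in CM wells, against 37.8, 26.9, 29.9 and 20.4 in NCM wells. It lay lower in the CM wells of each animal, with 1 CM value inside the NCM range, and it did not pass the test (log2 −0.58, SE 0.35). Slc2a3 (GLUT3), a high-affinity transporter of neurons and leukocytes, had 2.82, 1.34, 0.103 and 0.265 CPM in CM wells, against 12.9, 4.94, 9.03 and 10.6 in NCM wells. Its fractions did not overlap, yet the difference missed the threshold (log2 −3.20, SE 1.00, edgeR adjusted p 0.0623).

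Of the hexokinases, which trap glucose as its phosphate, Hk2, the insulin-regulated form of muscle, was the most abundant in both fractions. Hk2 had 67.0, 133, 121 and 151 CPM in CM wells, against 58.4, 113, 92.9 and 85.6 in NCM wells, and Hk1 had 27.3, 42.3, 48.9 and 36.6 against 14.7, 21.4, 24.1 and 10.8. Both were higher in the CM wells of each of the 4 animals and both passed the test (log2 0.95 and 1.71, SE 0.24 and 0.31, edgeR adjusted p 0.0296 and 0.00641), although the Hk2 ranges overlapped. Hk3, a hexokinase of myeloid cells, was low in both fractions at 2.58 to 8.08 CPM in CM and 5.67 to 8.79 in NCM wells, and showed no difference past the threshold (log2 −0.10, SE 0.54). Gpi1, which turns glucose phosphate into fructose phosphate, had 339, 389, 245 and 276 CPM in CM wells, against 237, 221, 156 and 140.3 in NCM wells (log2 1.28, SE 0.24, edgeR adjusted p 0.00743).

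Phosphofructokinase commits the sugar to glycolysis, and its 3 genes behaved unlike one another. The muscle form Pfkm had 120.2, 337, 179 and 348 CPM in CM wells, against 17.5, 38.1, 10.3 and 14.5 in NCM wells. Its 4 CM values all lay above its 4 NCM values (log2 4.20, SE 0.38, edgeR adjusted p 0.000253). The platelet form Pfkp had 113, 130.1, 94.1 and 65.3 CPM in CM wells, against 82.4, 165, 45.4 and 66.1 in NCM wells, and the liver form Pfkl had 32.3, 21.4, 6.02 and 7.03 against 13.0, 22.6, 5.81 and 10.3. The fractions overlapped for both, and neither passed the test (log2 0.83 and 0.72, SE 0.25 and 0.39, edgeR adjusted p 0.0583 and 0.254).

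Aldolase A (Aldoa), which cleaves fructose bisphosphate, was the most abundant gene of the upper pathway. It had 2227, 2785, 1996 and 1883 CPM in CM wells, against 835, 843, 668 and 744 in NCM wells, with no overlap (log2 2.06, SE 0.25, edgeR adjusted p 0.001). Aldoc, known chiefly from brain, was near or at 0 in CM wells (2.97 and 0.0687 CPM in KO1 and KO2, and no column in the WT CM table) and reached 2.27 to 7.65 in NCM wells. Its UMIs came from few wells: 1 well held 76.9% of them in KO1 CM wells and 91.7, 90.1, 49.3 and 68.7% in the NCM wells of KO1, KO2, WT1 and WT2. Tpi1, which interconverts the 2 trioses, had 614, 656, 586 and 569.9 CPM in CM wells, against 327, 355, 250.5 and 207 in NCM wells (log2 1.66, SE 0.23, edgeR adjusted p 0.0019).

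In the lower pathway the muscle isoforms parted from their ubiquitous counterparts. Pgam2, the muscle mutase, had 1488, 5089.7, 3258 and 3591 CPM in CM wells, against 86.5, 344, 96.9 and 279 in NCM wells. The lowest CM value, that of KO1, was still above the highest NCM value (log2 4.73, SE 0.32, edgeR adjusted p 0.000117). Eno3, the muscle enolase, had 659, 2147, 1704 and 1719 CPM in CM wells, against 51.4, 117, 39.8 and 135 in NCM wells (log2 4.78, SE 0.38, edgeR adjusted p 0.00016). Here too KO1 was the lowest of the CM samples and the fractions did not overlap. The ubiquitous counterparts did not pass the test: Pgam1 had 15.4, 4.62, 8.95 and 5.87 CPM in CM wells, against 16.7, 23.3, 13.8 and 12.5 in NCM wells (log2 −0.49, SE 0.43), and Eno1 had 398, 131, 168 and 81.2 against 198, 219, 242 and 234 (log2 0.09, SE 0.36). With copies added, Pgam1 ran from 114 to 264 and Eno1 from 212 to 1171 CPM in CM wells, against 201 to 428 and 621 to 673 in NCM wells, and both still did not pass (log2 −0.29 and 0.03, edgeR adjusted p 0.469 and 0.965).

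Gapdh, Pgk1 and Pkm, which serve other steps after aldolase, moved less than Pgam2 and Eno3. Gapdh, which makes NADH, had 39.9, 41.9, 31.6 and 30.9 CPM in CM wells, against 28.2, 27.3, 16.9 and 17.6 in NCM wells, and Pgk1, which makes ATP, had 137, 109, 91.9 and 85.1 against 69.6, 67.5, 60.7 and 49.5. Both were higher in CM wells with no overlap (log2 1.25 and 1.31, SE 0.28 and 0.23, edgeR adjusted p 0.0163 and 0.00603). With copies added, Gapdh had a mean of 1107 ± 146 CPM in CM wells and 541 ± 50.8 in NCM wells (SD, n = 4 animals each; log2 1.58, edgeR adjusted p 0.00239), and Pgk1 to 453 ± 86.5 and 295 ± 71.7 (log2 1.18, edgeR adjusted p 0.00777). Pkm, the pyruvate kinase of heart, muscle and most other tissues, had 865, 544, 429 and 412 CPM in CM wells, against 497, 467, 315 and 235 in NCM wells. It was higher in the CM wells of each animal and passed the test (log2 1.11, SE 0.22, edgeR adjusted p 0.0106), while the ranges overlapped.

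The lactate dehydrogenase subunits parted. Ldhb, the heart-type subunit, had 1054, 3195, 2527 and 3076 CPM in CM wells, against 102, 176, 77.8 and 229.6 in NCM wells, with no overlap (log2 4.62, SE 0.36, edgeR adjusted p 0.00016). Ldha, the muscle-type subunit, had 1877, 1509, 1157 and 919.6 CPM in CM wells, against 990.4, 1092, 904 and 961 in NCM wells. Its difference was small next to that of Ldhb but past the threshold (log2 0.96, SE 0.25, edgeR adjusted p 0.0308), and WT2 CM wells lay within the NCM range. The lactate carriers also split: Slc16a1 (MCT1), which serves uptake in the heart, had 52.9, 55.2, 43.6 and 78.5 CPM in CM wells, against 7.68, 12.5, 9.31 and 4.01 in NCM wells (log2 3.38, SE 0.43, edgeR adjusted p 0.00113). Slc16a3 (MCT4), linked to lactate export from glycolytic cells, was the 1 gene that was lower, with 10.3, 4.14, 5.46 and 2.75 CPM in CM wells, against 27.3, 27.3, 17.0 and 23.3 in NCM wells (log2 −1.67, SE 0.41, edgeR adjusted p 0.0262).

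Of the PFKFB enzymes, only the heart form Pfkfb2 passed the test. It ran from 18.4 (KO1) to 38.3 CPM (WT2) in CM wells, against 3.25 (WT1) to 13.0 (KO1) in NCM wells, with no overlap (log2 2.80, SE 0.53, edgeR adjusted p 0.00838). Pfkfb3, the inducible form, had 31.2, 10.1, 14.1 and 15.9 CPM in CM wells, against 40.6, 33.9, 31.2 and 21.2 in NCM wells, with 1 CM value inside the NCM range (log2 −0.38, SE 0.33). Pfkfb4 and Pfkfb1 stayed under 5 CPM in CM wells and did not pass (log2 −0.24 and −0.33, SE 0.87 and 1.33). For Pfkfb1, the liver and muscle form, 1 well held 93.8% of the UMIs of WT1 NCM wells, where the level was 39.0 CPM, against 0.189 to 3.72 in the NCM wells of the other 3 animals.

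All 4 genes at the entry of pyruvate into the mitochondrion were higher in CM wells, without overlap. Pdha1 and Pdhb, which encode the subunits of the first enzyme of the pyruvate dehydrogenase complex, had 121, 273, 208 and 267 and 248, 616, 457 and 489.7 CPM in CM wells, against 55.0, 67.4, 38.7 and 56.3 and 78.4, 80.6, 80.4 and 80.7 in NCM wells (log2 2.51 and 2.97, SE 0.30 and 0.32, edgeR adjusted p 0.000943 and 0.00057). Pdk1 and Pdk2, kinases that switch that enzyme off, had 33.8 to 43.8 and 17.4 to 45.0 CPM in CM wells, against 5.02 to 19.8 and 3.08 to 15.5 in NCM wells (log2 2.10 and 3.03, SE 0.43 and 0.40, edgeR adjusted p 0.0116 and 0.00142). Across the whole set, the 4 CM values lay above the 4 NCM values for 17 of 32 genes and below for 2 (Slc2a3 and Slc16a3), where 7.74 and 22.5% of all genes tested did so. In wells under 30% mitochondrial UMIs, where KO1 kept 38 CM and 18 NCM wells, 11 genes were higher and 1 lower, where 4.18 and 1.16% of all 13453 genes tested were. Under all 15 alternatives 11 of the 21 calls were kept, and those lost in 1 or more were Gapdh, Gpi1, Hk1, Hk2, Ldha, Pdha1, Pfkfb2, Pkm, Slc16a1 and Slc16a3.

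**Figure D2:**
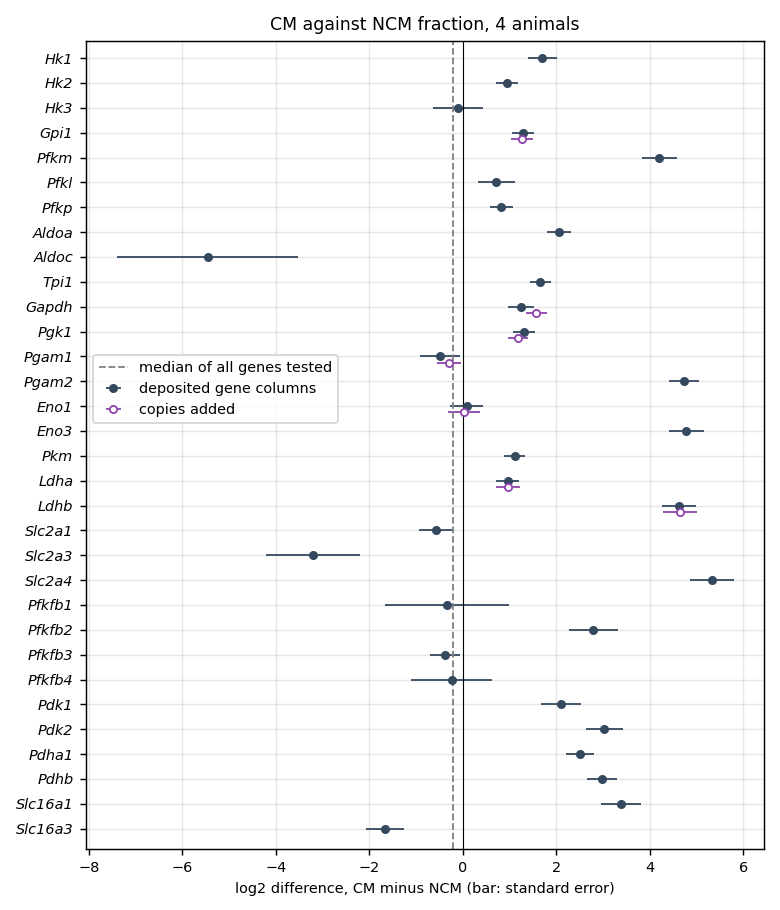
TMM-scaled log2 difference, CM minus NCM, for each gene (filled points, bars are standard errors, 4 animals), with open points for the 7 genes whose near-identical copies were added and a dashed line at the median of all genes tested. Slc2a4, Eno3, Pgam2, Ldhb and Pfkm lie above 4, and adding copies leaves each open point near its filled one.

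The contrast between fractions was present in both genotypes. In KO animals alone 11 of 32 genes were higher and 0 lower (3.7% and 0.926% of all genes tested). In WT animals alone 11 were higher and 1, Slc2a3, was lower (4.78% and 1.12% of all genes tested). KO alone and WT alone name contrasts of a single fit of all 4 animals, in which the fraction difference could differ between genotypes. The spread was estimated over both genotypes together, so these contrasts are not independent replications. Pfkm had a log2 difference of 3.56 (SE 0.38) in KO and 4.85 (SE 0.40) in WT animals, Slc2a4 4.55 (SE 0.47) and 6.11 (SE 0.51), Pdk2 2.33 (SE 0.40) and 3.71 (SE 0.43), and Slc2a3 −1.44 (SE 0.83) and −5.29 (SE 1.01). These 4 had an unadjusted p under 0.05 for the difference between genotypes, but none passed after adjustment (smallest edgeR adjusted p 0.903), and 0.0% of all genes were called there by edgeR, with 799 at an unadjusted p under 0.05. DESeq2 called 107 of all genes (0.693%) and 0 of the 32. Without WT1 or without WT2 the count in WT alone fell to 0, against 12 with both.

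Isoform shares set the members of a pair against each other within a sample. Pgam2 made up 99.0, 99.9, 99.7 and 99.8% of Pgam1 plus Pgam2 UMIs in CM wells of KO1, KO2, WT1 and WT2, against 83.8, 93.7, 87.6 and 95.7% in their NCM wells. With Pgam1-ps2 counted as Pgam1, these shares became 85.0, 97.6, 94.9 and 96.9% in CM wells, against 19.4, 44.6, 31.2 and 58.2% in NCM wells. The mean difference, CM minus NCM, was 55.3 percentage points with the copy and 9.43 ± 5.12 without it (SD, n = 4 animals). Eno3 made up 62.4, 94.3, 91.0 and 95.5% of the enolase pair in CM wells, against 20.6, 34.8, 14.1 and 36.6% in NCM wells, and with copies 36.0, 84.7, 78.8 and 89.0% against 7.26, 14.9, 5.58 and 17.9%.

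Ldhb made up 36.0, 67.9, 68.6 and 77.0% of the lactate dehydrogenase pair in CM wells, against 9.32, 13.9, 7.92 and 19.3% in NCM wells. Slc2a4 made up 54.5, 83.6, 82.6 and 86.5% of Slc2a1 plus Slc2a4 in CM wells, against 3.57, 16.1, 3.43 and 5.15% in NCM wells. KO1 had the lowest CM share in all 4 pairs, and it also had the lowest cardiomyocyte marker sum of the CM samples (2.45%); the part of those markers in its shares was not tested. The differences, CM minus NCM, averaged 59.2 ± 14.4 points for Eno3, 49.8 ± 15.7 for Ldhb, 69.7 ± 14.0 for Slc2a4 and 49.0 ± 15.3 for Pfkm among the phosphofructokinases (SD, n = 4 animals). Hk2 among hexokinases and Slc16a3 of the lactate carrier pair ran the other way in each animal, by −5.59 ± 2.25 and −64.7 ± 12.1 points. All 9 isoform groups compared gave an exact sign-flip permutation p of 0.125 (two-sided, adjusted 0.125), the smallest that 4 animals allow. Between KO and WT animals no share gave an exact permutation p under 0.333, the smallest 2 against 2 animals allow.

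**Figure D3:**
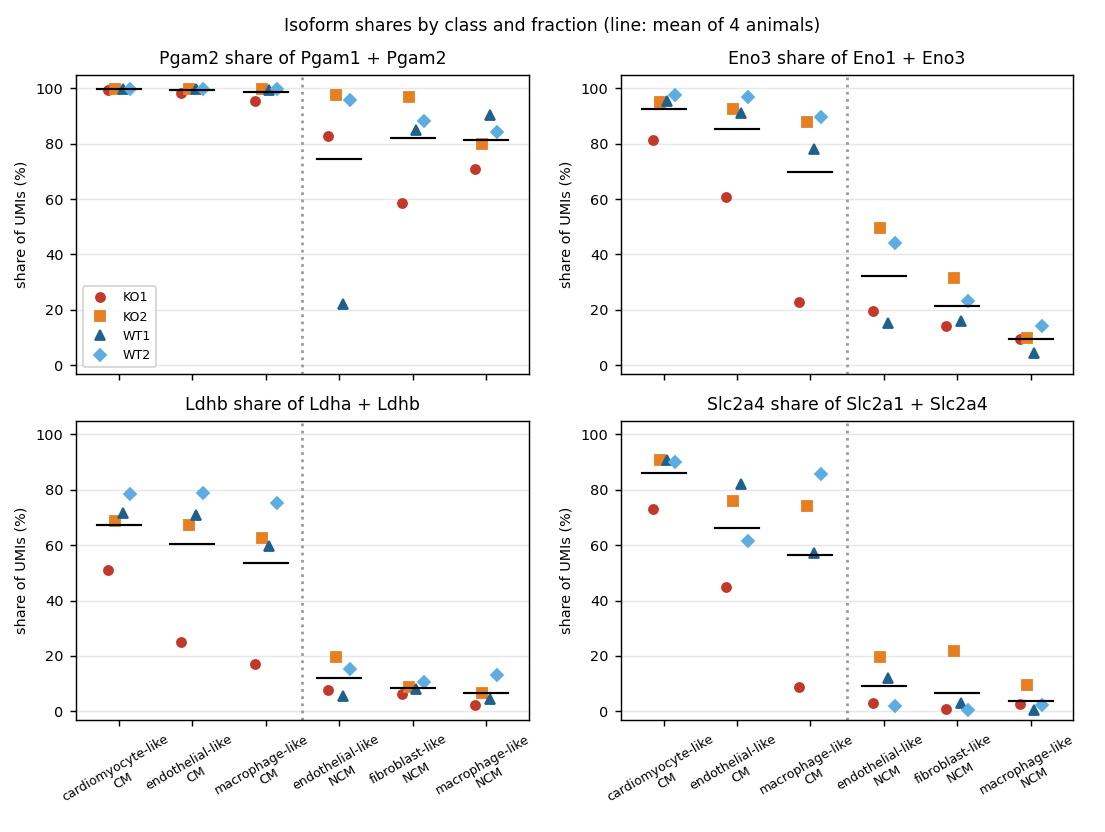
Share of UMIs taken by the muscle, heart or insulin-responsive isoform in 4 pairs (vertical axes, %), for 3 classes of CM wells (left of the dotted line) and 3 classes of NCM wells; points are animals and lines are means. In cardiomyocyte-like wells the mean shares were 99.8% (Pgam2), 92.4% (Eno3), 67.4% (Ldhb) and 86.0% (Slc2a4), and KO1 was the lowest sample in each. These means use the deposited columns. With copies added, the Pgam2 share of single animals was 2.01 to 66.4% in endothelial-like NCM wells. It was then 9.24 to 67.5% in fibroblast-like and 8.53 to 32.8% in macrophage-like NCM wells. In cardiomyocyte-like wells Pgam2 stayed at 91.7% or more with copies added, and Eno3 was at 59.5 to 93.7%. The copy columns were not left out of the clustering that formed these classes.

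Wells were then clustered without the 32 genes, so that their levels could be compared between classes, and clusters were named from marker genes as "X-like". The columns of near-identical copies were not left out of the clustering. Class values with copies added are therefore not independent of the classes. Of the NCM wells, 256, 386, 251 and 238 in KO1, KO2, WT1 and WT2 lay in clusters that stayed unnamed. They are in the NCM sums but in no class. The largest such cluster held 181, 258, 174 and 162 NCM wells of KO1, KO2, WT1 and WT2. Its leading genes held 2 cardiomyocyte markers, Myh6 and Tnnt2, where a name needed 3, and Ttn came first. Another unnamed cluster held 52 and 116 KO wells, against 3 and 6 WT wells. The part of these clusters in the NCM values and in the differences between fractions was not tested. Cardiomyocyte-like CM wells numbered 136, 275, 121 and 194 in KO1, KO2, WT1 and WT2. Among named classes with at least 20 wells in each animal, they carried the set most heavily, at 1.61, 2.01, 1.97 and 1.70% of other UMIs. Endothelial-like NCM wells had 0.406, 0.412, 0.363 and 0.382%, fibroblast-like 0.331, 0.380, 0.249 and 0.276%, and macrophage-like 0.440, 0.451, 0.417 and 0.330%. Set against the mean of these 3 NCM classes, 21 of 32 genes were higher in cardiomyocyte-like wells and 0 lower, where 15.3% of all 14165 genes tested were higher and 11.2% lower. The median log2 difference was 1.72 over the 32 genes and −0.14 over all genes tested. The 20 genes higher between whole fractions were all among the 21, with Pfkp added (log2 1.30, SE 0.31, edgeR adjusted p 0.00545).

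Slc2a4 had 61.4, 78.7, 64.8 and 96.9 CPM in cardiomyocyte-like wells, against means of 2.25, 1.54 and 1.29 in endothelial-, fibroblast- and macrophage-like NCM wells (log2 7.19, SE 0.72, edgeR adjusted p 2.3e-06). Eno3 had 1384, 2358, 2559 and 2094 CPM in cardiomyocyte-like wells, against class means of 90.3, 49.5 and 40.1 (log2 6.02, SE 0.23, edgeR adjusted p 1.73e-10). Ldhb had 1998, 3483, 3745 and 3744, against 145, 82.0 and 70.6 (log2 5.78, SE 0.21, edgeR adjusted p 1.14e-10), and Pgam2 2908, 5636, 5091 and 4173, against 192, 169 and 88.4 (log2 5.84, SE 0.56, edgeR adjusted p 1.49e-06). In each of the 4, the lowest cardiomyocyte-like sample was above every animal's value in the 3 NCM classes. Aldoa, although present in every class, was also higher in cardiomyocyte-like wells, with 3544, 3123, 2992 and 2228 CPM against class means of 787, 569 and 813 (log2 2.65, SE 0.15, edgeR adjusted p 3.99e-09). The fraction and the chip differ between these classes as well, and their part cannot be told apart.

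The NCM classes were also compared with one another. Each class was compared with the mean of the other 2, with 31 genes tested: 7 were higher and 0 lower in macrophage-like wells (6.27 and 4.76% of all genes). In fibroblast-like wells 0 were higher and 3 lower (5.63 and 3.82% of all genes), and in endothelial-like wells 0 were higher and 1 lower (3.01 and 1.29% of all genes). The median log2 difference of the set was 0.58 in macrophage-like, −0.42 in fibroblast-like and −0.06 in endothelial-like wells, beside −0.16, 0.12 and −0.03 over all genes. The 3 comparisons use the same wells, and a gene high in one class lowers the others by construction.

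Pkm and Eno1 were the 2 macrophage-like calls kept under all 9 alternatives tried. Pkm had 822, 761, 489 and 254 CPM in macrophage-like wells of KO1, KO2, WT1 and WT2, against 535, 448, 267 and 209 in endothelial-like and 366, 358, 147 and 175 in fibroblast-like wells. The macrophage-like value was the highest of the 3 classes in each animal (log2 1.26, SE 0.17, edgeR adjusted p 0.000723). Eno1 had 249, 514, 388 and 374 CPM in macrophage-like wells, against 207, 149, 221 and 156 in endothelial-like and 159, 197, 165 and 163 in fibroblast-like wells, again highest in each animal (log2 1.47, SE 0.22, edgeR adjusted p 0.00164, and 1.35 with adjusted p 0.000692 when its copies were added). With copies added, Gapdh and Pgam1 also passed in macrophage-like wells (log2 0.96 and 0.93, edgeR adjusted p 0.00166 and 0.0386), which neither did on its own column. The copy columns had been open to the clustering, so the tests with copies are not independent of the classes they compare.

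The other macrophage-like calls were weaker. Hk3, the myeloid hexokinase, had 35.7, 9.89, 18.2 and 21.8 CPM in macrophage-like wells, against 0.144 to 5.34 in endothelial-like and 0 to 2.62 in fibroblast-like wells (log2 5.29, SE 1.16, edgeR adjusted p 0.0131). No animal's value in these 2 classes reached the macrophage-like range, but the UMIs came from 7, 6, 14 and 17 macrophage-like wells. Slc2a1 averaged 45.3 ± 21.3 CPM in macrophage-like wells, against 23.7 ± 15.9 and 17.3 ± 13.7 in endothelial- and fibroblast-like wells (SD, n = 4 animals; log2 1.77, edgeR adjusted p 0.0402), and Pfkfb3 passed likewise (log2 1.80, SE 0.48, edgeR adjusted p 0.0354). Gpi1 and Aldoa passed at log2 0.74 and 0.66 (edgeR adjusted p 0.0445 and 0.0172), and the Aldoa and Gpi1 ranges overlapped those of endothelial-like wells. Leaving out any 1 animal reduced the 7 calls to 3 or 4, and library totals in place of TMM to 3.

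In fibroblast-like wells Pkm, Gpi1 and Aldoa were lower (log2 −0.93, −1.06 and −0.62, SE 0.18, 0.23 and 0.16, edgeR adjusted p 0.00876, 0.0139 and 0.0342). Gpi1 had 186, 129, 97.6 and 64.6 CPM there, against 241, 237, 193 and 220.5 in endothelial-like and 320.0, 195, 183 and 158 in macrophage-like wells, lowest in fibroblast-like wells in each animal. Without WT1 no gene passed in fibroblast-like wells, and without WT2 only 1 did. In endothelial-like wells Hk2 was the gene called, with 46.9, 30.8, 31.8 and 14.4 CPM, against 78.3, 149.6, 89.7 and 119.7 in fibroblast-like and 60.3, 41.8, 91.6 and 66.8 in macrophage-like wells (log2 −1.72, SE 0.41, edgeR adjusted p 0.0389). It was the lowest class in each animal, but the call was lost without KO2, WT1 or WT2. Neutrophil-like NCM wells, tested after seeing the data because 1 animal had 19 of them, had 3 genes higher and 0 lower (3.31 and 1.39% of all genes), namely Eno3, Pfkfb3 and Slc16a3 (log2 1.65, 2.42 and 2.41, edgeR adjusted p 0.00496, 0.00395 and 0.0496), and 0 without WT2.

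**Figure D4:**
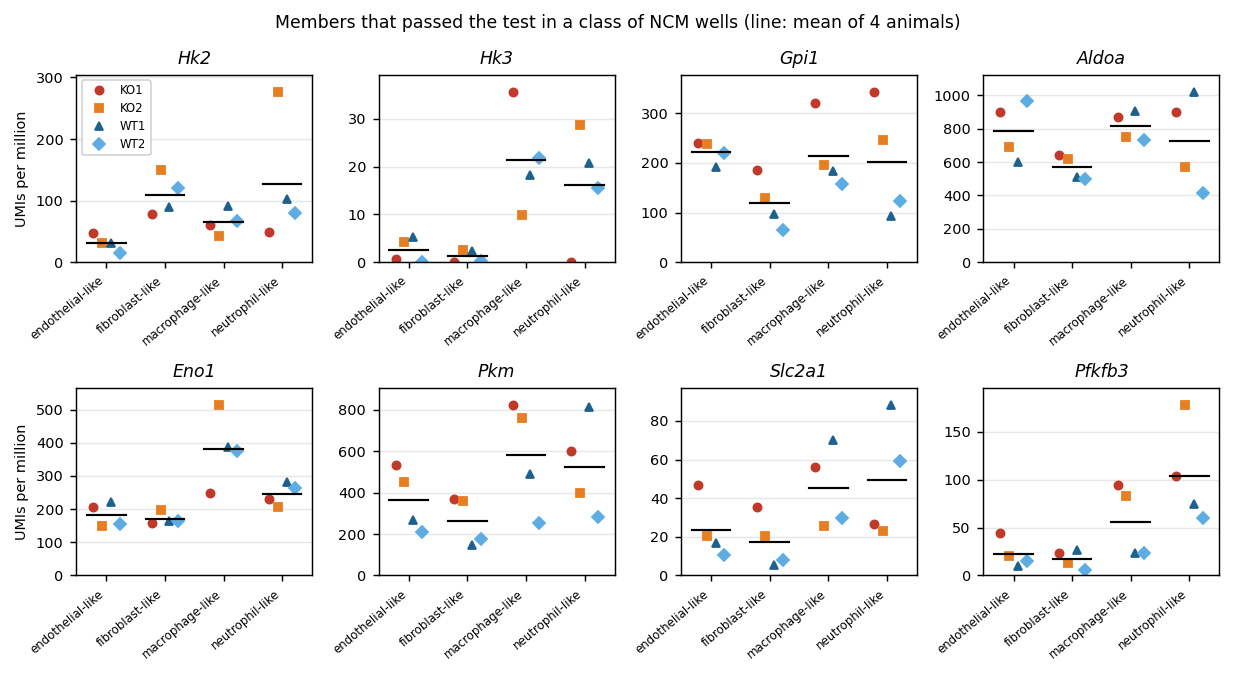
Level (CPM, vertical axes, linear, each panel with its own range) of the 8 genes that passed the test in endothelial-, fibroblast- or macrophage-like NCM wells, with neutrophil-like wells beside them; points are animals and lines are means. Eno1 and Pkm are highest in the macrophage-like wells of each animal among the first 3 classes, and Hk2 is lowest in endothelial-like wells.

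Wells of one class could also be compared between fractions, since endothelial-like and macrophage-like wells occurred in both. In endothelial-like wells (69, 74, 30 and 28 in the CM and 255, 128, 63 and 156 in the NCM fraction), 10 of 28 genes were higher in the CM fraction and 0 lower (4.54 and 1.7% of all genes tested). They were Pfkm, Aldoa, Tpi1, Pgam2, Eno3, Ldhb, Slc2a4, Pdha1, Pdhb and Slc16a1. In macrophage-like wells (21, 20, 32 and 20 in the CM and 39, 47, 106 and 91 in the NCM fraction), 3 of 29 were higher and 0 lower (2.14 and 0.255% of all genes): Pgam2, Eno3 and Ldhb, with log2 differences of 4.37, 4.56 and 4.42 (SE 0.47, 0.49 and 0.34, edgeR adjusted p 0.00485, 0.00485 and 0.00242). Their log2 differences in endothelial-like wells were 4.96, 4.35 and 4.35 (SE 0.67, 0.38 and 0.33, edgeR adjusted p 0.00118, 8.38e-05 and 3.7e-05). Most endothelial-like wells of the 2 fractions came from different clusters, cluster 6 in the CM and cluster 1 in the NCM fraction.

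Cardiomyocyte markers moved with these results. All 8 were detected, and they summed to 2.06, 5.21, 3.35 and 5.51% of other UMIs in endothelial-like CM wells of KO1, KO2, WT1 and WT2, against 0.228, 0.447, 0.165 and 0.286% in endothelial-like NCM wells. In macrophage-like wells they summed to 0.909, 3.94, 2.62 and 3.44% in the CM and 0.203, 0.305, 0.065 and 0.126% in the NCM fraction. Per 100 cardiomyocyte marker UMIs, Pgam2 had a median over animals of 6.90 UMIs in cardiomyocyte-like CM wells, with 6.77 in the endothelial-like and 6.34 in the macrophage-like ones. Fibroblast-like CM wells, of which there were 18, 10, 18 and 26 in KO1, KO2, WT1 and WT2, had 6.47. In the same order Eno3 had 3.24, 3.23, 3.46 and 2.39, and Ldhb 4.99, 5.48, 5.13 and 5.39. Single animals differed more, with Pgam2 in WT2 at 5.42 in cardiomyocyte-like and 8.96 in endothelial-like wells, and Eno3 in KO1 at 3.01 in cardiomyocyte-like and 1.92 in macrophage-like wells. Slc2a4 had medians of 0.121, 0.0706, 0.0676 and 0.0651. Aldoa, also made by other cells, had 4.49, 3.92, 5.25 and 3.76 in the CM classes and 34.9, 55.3 and 50.5 in endothelial-, fibroblast- and macrophage-like NCM wells. For these NCM classes the medians of Pgam2 were 6.30, 8.62 and 4.76. Those of Eno3 were 2.84, 3.66 and 2.23, those of Ldhb 4.83, 7.97 and 5.01, and those of Slc2a4 0.0874, 0.0291 and 0.0635. Single animals varied widely there, with Pgam2 in WT1 at 0.439 in endothelial-like and 22.1 in macrophage-like NCM wells. The part of cardiomyocyte RNA in the isoform differences between fractions within a class, or in the levels of the NCM classes, was not tested.

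Between genotypes no gene of the set passed the test. In NCM wells 0 of 32 were called (0.0% of all 17216 genes by edgeR, with 2075 at an unadjusted p under 0.05 and 579, or 3.36%, called by DESeq2), and in CM wells 0 of 31 (0.0% of all 14462 genes by edgeR, with 498 at an unadjusted p under 0.05 and 48, or 0.332%, called by DESeq2). The same held in each of the 6 class and fraction combinations tested (0.0% of all genes in each by edgeR, with 377 to 1449 genes at an unadjusted p under 0.05 and 33 to 383 called by DESeq2). The median log2 difference, KO minus WT, was 0.20 over the set in NCM wells and 0.17 in CM wells, beside −0.01 and 0.01 over all genes. Mitochondrial genes took more of the UMIs in KO than in WT NCM wells, as given above, and their part in the NCM values was not tested. With 2 animals per group, an exact permutation test of one gene could not go below 0.333.

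Pkm and Pfkl were among the genes with an unadjusted p under 0.05 on their own columns. Pkm had 497 and 467 CPM in KO1 and KO2 NCM wells, against 315 and 235 in WT1 and WT2, and 865 and 544 in KO CM wells, against 429 and 412 in WT CM wells. Both KO animals were above both WT animals in each fraction (log2 0.65, SE 0.22 in NCM wells, with edgeR p 0.0239 and adjusted p 0.377; log2 0.60, SE 0.38 in CM wells, adjusted p 0.999). The same order was seen in endothelial-like, fibroblast-like and macrophage-like NCM wells, where Pkm had log2 differences of 0.90, 1.01 and 0.99 (SE 0.33, 0.27 and 0.38, edgeR adjusted p 0.524, 0.431 and 0.538). These classes and the NCM sum share wells, so they are not separate evidence. Pfkl had 32.3 and 21.4 CPM in KO CM wells, against 6.02 and 7.03 in WT CM wells (log2 1.89, SE 0.47, edgeR p 0.00645, adjusted p 0.999), and 1 well held 24.8 and 31.4% of the UMIs in KO1 and KO2, against 9.40 and 12.3% in WT1 and WT2.

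On the deposited columns, the low p-values of 4 other genes rested on few UMIs or few wells. Slc2a3 had 2.82 and 1.34 CPM in KO CM wells, from 37 and 78 UMIs, against 0.103 and 0.265 in WT CM wells, from 2 and 8 UMIs (log2 3.23, SE 1.28, edgeR adjusted p 0.999). Pfkfb1 had 0.189 and 1.31 CPM in KO NCM wells, against 39.0 and 3.72 in WT NCM wells, where a single WT1 well weighed most (log2 −4.87, SE 1.40, edgeR adjusted p 0.339). Aldoc in fibroblast-like NCM wells had 8.45 and 26.5 CPM in KO animals, with 1 well holding 100 and 99.5% of the UMIs, against 0.0793 and 0.0336 in WT animals (log2 7.99, SE 1.38, edgeR adjusted p 0.431). Slc16a1 in endothelial-like NCM wells had 2.50 and 25.5 CPM in KO animals, against 0.213 and 0.144 in WT animals (log2 6.19, SE 1.89, edgeR adjusted p 0.515). DESeq2 called Pfkfb1, Aldoc and Slc16a1 in these 3 comparisons (adjusted p 6.82e-05, 1.66e-07 and 0.0255), where it called 3.36, 2.7 and 2.09% of all genes.

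On CPM from plain totals, both KO values lay above both WT values for 14 of 32 genes in NCM wells and 11 of 31 in CM wells, where 26.9 and 15.8% of all genes did so, and below for 2 (Eno1 and Pfkfb1) and 1 (Pfkfb2), where 18.3 and 12.7% did. With copies added, the log2 differences in NCM wells were 0.04 for Gapdh (SE 0.20; 0.53 on its own column), 0.77 for Pgam1 (SE 0.23; 0.46 on its own column), 0.42 for Pgk1, 0.40 for Gpi1, −0.12 for Eno1, −0.33 for Ldhb and −0.00 for Ldha. Of these 7, Pgam1 had an unadjusted p under 0.05 (edgeR p 0.0138, adjusted p 0.341), with 358 and 428 CPM in KO NCM wells, against 214 and 201 in WT NCM wells. KO1 and KO2 lay further apart than the genotype means for Pgam2 and Ldhb in cardiomyocyte-like wells: Pgam2 had 2908 and 5636 CPM in KO animals, against 5091 and 4173 in WT animals, and Ldhb 1998 and 3483, against 3745 and 3744. The cardiomyocyte marker sum in these wells was 4.60 and 6.81% in KO1 and KO2, against 6.82 and 7.70% in WT1 and WT2. Without KO2, which leaves KO1 as the only KO animal, 7 genes passed in cardiomyocyte-like wells (6.3% of all genes), with Hk2, Pgam2, Pdhb, Ldhb, Pdha1 and Eno3 lower and Pfkl higher in KO1, and Pgam2, Ldhb and Eno3 were lower in macrophage-like CM wells (1.78% of all genes).

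**Figure D5:**
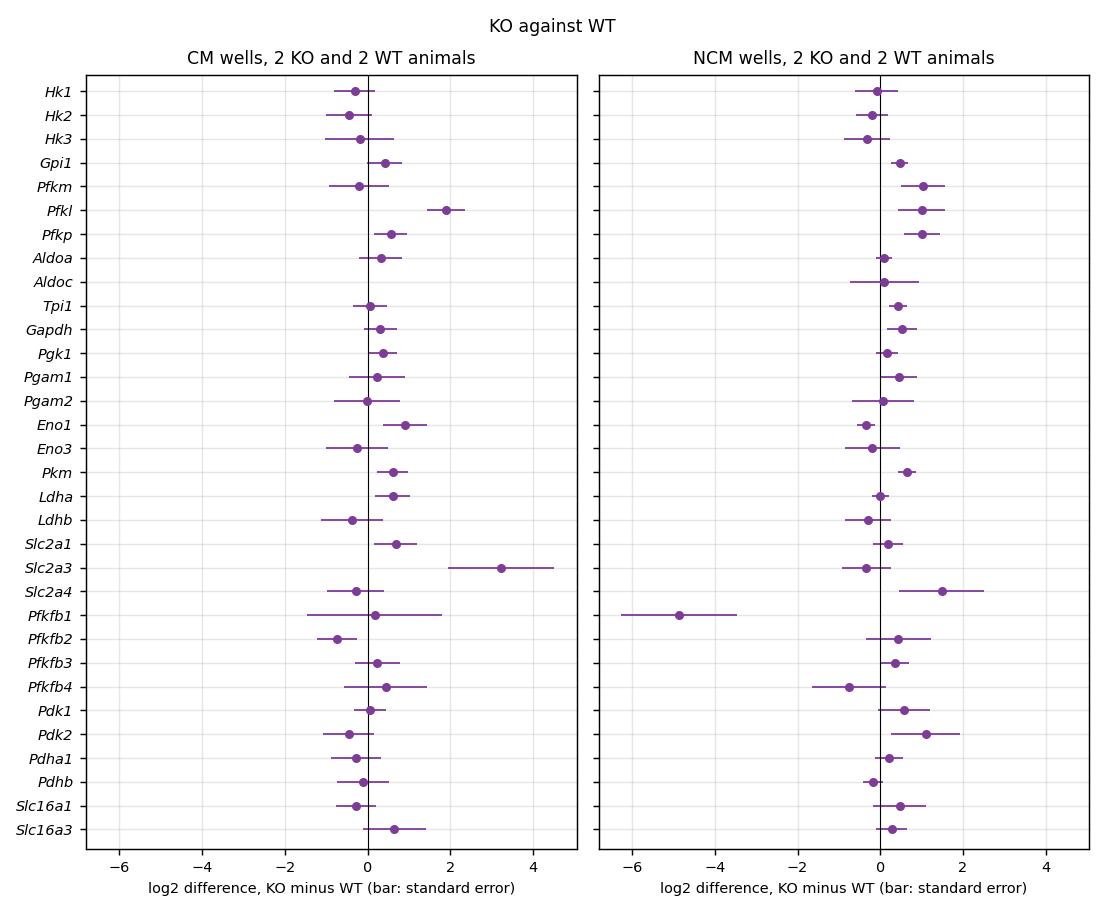
TMM-scaled log2 difference, KO minus WT, for each gene in CM wells (left, Aldoc not tested) and NCM wells (right); bars are standard errors from 2 KO and 2 WT animals. No point passed the test, and the one farthest from 0 in NCM wells, Pfkfb1 at −4.87, rests mainly on 1 WT1 well.

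Neighbouring pathways are set here against the 9.46% of all genes higher and 6.61% lower in the CM fraction, with an all-gene median log2 of −0.22. Of 13 glycogen genes tested 8 were higher and 0 lower in the CM fraction (median log2 2.30), among them Pygm, the muscle glycogen phosphorylase, with 80.4, 267, 166 and 291 CPM in CM wells, against 16.6, 20.1, 5.84 and 9.33 in NCM wells (log2 4.54, SE 0.51, edgeR adjusted p 0.00071), as well as the phosphorylase kinase subunit Phkg1 (log2 5.84). Of 12 genes for pyruvate entry to mitochondria 6 were higher and 0 lower (median 1.62), led by Pdk4, the dehydrogenase kinase raised by fasting, with 31.2, 132, 45.2 and 75.2 CPM in CM wells, against 2.50, 16.8, 1.44 and 2.73 in NCM wells (log2 4.64, SE 0.40, edgeR adjusted p 0.000245). Pdhx and Dlat, further parts of the complex, followed (log2 3.12 and 2.98). Of 19 genes that control glucose use 6 were higher (median 0.74), with Ppara, Ppargc1a and Tigar at log2 5.98, 5.56 and 4.64. Of 7 pentose phosphate genes 0 were higher and 1 lower, and their median of −0.29 lay close to that of all genes; the 1 was the transketolase Tkt, with 30.5, 8.04, 23.3 and 14.1 CPM in CM wells, against 78.5, 53.3, 60.8 and 55.0 in NCM wells (log2 −1.31, SE 0.29, edgeR adjusted p 0.0161). Of 9 further glycolysis genes 3 were higher (Ldhd, Slc2a12 and Fbp2) and 1 was lower, Bpgm, an enzyme of red cells named here after its value was seen.

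Within the NCM fraction the pentose phosphate genes Pgd and Taldo1 were higher in macrophage-like wells (log2 2.00 and 0.87, SE 0.39 and 0.23, edgeR adjusted p 0.00689 and 0.0299), as was the angiogenic factor Vegfa (log2 1.65). Gyg of the glycogen list and Slc16a7 of the pyruvate entry list were also higher there (log2 1.28 and 5.55, edgeR adjusted p 0.0251 and 0.0396). Epas1 was lower there (log2 −1.93, edgeR adjusted p 0.00232). Endothelial-like wells were higher in the fatty acid receptor Cd36, the hypoxia factor Epas1 and the glucose uptake inhibitor Txnip (log2 3.60, 3.17 and 1.64, edgeR adjusted p 0.00142, 0.000449 and 0.00445). Fibroblast-like wells were higher in Ugp2, which makes the sugar donor for glycogen (log2 1.60, edgeR adjusted p 0.0174). They were lower in Cd36, Epas1 and Bnip3 (log2 −3.03, −1.24 and −1.15, edgeR adjusted p 0.00212, 0.0231 and 0.0176). Neutrophil-like wells, tested after seeing the data, were higher in Pygl and Egln3 (log2 2.12 and 3.50, edgeR adjusted p 0.0373 and 0.00412). No gene of the 5 lists passed between KO and WT in either fraction.

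Promoters were read from RefSeq (GRCm38.p6), from 250 bases before to 50 bases after each listed start, for 30 of the 32 genes with 49 starts. The Pgam2 promoter (chr11:5803747-5804046, minus strand) is shown because this gene differed between fractions and its partner did not; capitals mark a MEF2 box, the A/T-rich element bound by MEF2 factors of striated muscle.
Pgam2: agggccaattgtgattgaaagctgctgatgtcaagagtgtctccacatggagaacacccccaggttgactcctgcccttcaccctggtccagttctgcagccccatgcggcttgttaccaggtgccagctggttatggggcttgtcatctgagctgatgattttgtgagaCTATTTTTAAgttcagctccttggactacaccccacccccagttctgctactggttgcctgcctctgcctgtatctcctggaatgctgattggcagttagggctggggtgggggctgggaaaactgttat
The Pgam1 promoter (chr19:41911621-41911920, plus strand) is shown beside it, with ACGTG, the core of the hypoxia response element, in capitals.
Pgam1: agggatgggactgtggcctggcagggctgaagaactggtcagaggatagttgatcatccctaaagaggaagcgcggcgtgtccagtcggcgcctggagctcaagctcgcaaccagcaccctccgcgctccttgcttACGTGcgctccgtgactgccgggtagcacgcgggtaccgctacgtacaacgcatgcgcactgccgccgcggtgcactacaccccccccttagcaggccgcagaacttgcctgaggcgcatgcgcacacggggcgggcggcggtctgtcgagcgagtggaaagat
On both strands, the MEF2 box lay in 2 of 49 promoters of the set (4.08%; Pgam2 and Pfkfb1), against 3.19% of all 32817 promoters. ACGTG lay in 22 of the 49 (44.9%), in 18 of 30 genes, against 19.6% of all promoters. Eno3, Ldhb and Pfkm, which also differed strongly between fractions, had no MEF2 box in this window, and a match or its absence is a description of these letters only.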

How the data were processed

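Single-well RNA-seq of 2 KO and 2 WT mouse hearts was analysed from the UMI counts per gene and well that the authors deposited, with 4315 wells in 4 tables. The build mm10, with STAR 2.5.2b and with featureCounts of Subread 1.4.6-p1, is named per the submitters' processing notes. How UMIs were collapsed is not given in the sources used here. In 4315 of 4315 wells the deposited counts summed to the gene and UMI pairs of the authors' well report. The report's multimapping column held 0 reads, and ambiguous reads were 4.57% of assigned plus ambiguous reads.

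Wells with at least 10000 UMIs and 300 genes were kept, and UMIs were summed per animal, fraction and class where an animal had 20 wells. Animal and fraction were taken from the well reports. Classes came from Leiden clustering (scanpy 1.11.5, leidenalg 0.10.2, 2000 variable genes, 30 principal components, 15 neighbours, resolution 1.0) without the 32 genes, mitochondrial or haemoglobin genes, and a class name needed 3 markers. The columns of near-identical copies were not left out. Clusters were named against other wells of the same libraries. The cardiomyocyte-like clusters did not get a name that way and were named against all other wells, which include the other fraction and chips. Scrublet marked 6 wells, which were left in.

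Sums were tested with edgeR 4.0.16 (R 4.3.3; TMM, filterByExpr, quasi-likelihood F test, Benjamini-Hochberg over all genes tested, threshold 0.05), and the scripts were tested on simulated data. CM against NCM fits carried the animal as a block, since both fractions came from the same heart, per the well reports. Standard errors are the log2 difference over the square root of F. Alternatives were DESeq2 1.42.0, other scalings, no filter on low counts, at least 20000 UMIs per well, wells under 30% mitochondrial UMIs, wells thinned to 3000 UMIs and each animal left out; the copies and the neutrophil-like class were added after seeing the data. Near-identical copies were found with blastn on transcripts of GENCODE.

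All 32 genes were named, with Stk4 and Stk3. From 5 lists of related genes, names were drawn from those past the threshold, at most the 3 with the largest log2 difference per list and comparison. Not every such gene or comparison is given. The members and lists were chosen with earlier results of these data known. In fits with the animal as a block, p-values measure how far differences within an animal vary from animal to animal. In KO minus WT fits they measure the spread between 2 animals per genotype. Counting error is small next to this spread except for genes with few UMIs.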

Additional observations from a re-analysis of the deposited data

Results flagged for a closer look

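In 5 of 64 combinations of gene and fraction, 1 animal stood apart from the other 3 by Dixon's criterion, which chance alone meets in about 1 in 20. Slc2a4 was at 5.17 CPM in KO2 NCM wells, against 1.06 to 1.40 in the other animals. Pdhb was at 78.4 CPM in KO1 NCM wells, against 80.4 to 80.7, a gap made large only by the closeness of the others. Aldoc was at 2.97 CPM in KO1 CM wells, against 0 to 0.0687, and 6 of 264 wells held its 39 UMIs.

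Pdk1 was at 5.02 CPM in WT2 NCM wells, against 17.4 to 19.8 in the other animals. Pfkfb1 was at 39.0 CPM in WT1 NCM wells, against 0.189 to 3.72, and 20 of 692 wells held its 3308 UMIs.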

How the results depend on the processing

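The 954 single-gene results under an alternative cover only genes called in the main edgeR fit and tested in that alternative. Of these, 824 kept their direction and their side of the threshold, 130 lost the threshold and 0 reversed. Genes that were not called in the main fit are outside this count. The CM minus NCM calls went to 12 in wells under 30% mitochondrial UMIs, against 21, and 11 of the 21 were kept under every alternative run; without the replicate block 20 were called. In WT alone, 12 calls became 23 with DESeq2 and 0 to 21 with 1 animal left out. In KO alone, 11 became 19 with DESeq2, 6 with library totals and 6 to 12 with 1 animal left out. Among NCM classes, the 1 endothelial-like call became 2 with DESeq2, 0 with library totals, 2 without the filter and 0 to 1 with 1 animal left out. The 3 fibroblast-like calls became 9 with DESeq2, 5 with copies added and 0 to 2 with 1 animal left out. The 7 macrophage-like calls became 3 with library totals and 3 to 4 with 1 animal left out. The 3 neutrophil-like calls became 9 with DESeq2, 5 without the filter and 0 to 2 with 1 animal left out. In macrophage-like wells between fractions, 3 became 10 with DESeq2, 6 without the filter and 3 to 6 with 1 animal left out. For KO minus WT, 0 calls became 1 with DESeq2 and 1 without the filter in NCM wells, 1 with DESeq2 in endothelial-like, and 1 with DESeq2 and 2 without the filter in fibroblast-like NCM wells; leaving out 1 animal gave 0 to 7 in cardiomyocyte-like and 0 to 3 in macrophage-like CM wells. The cause of these changes was not tested.

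Isoform share differences moved in wells under 30% mitochondrial UMIs, to 24.1 points for Pgam2 (SD 32.9), 51.2 for Slc2a4 (SD 29.9), −8.22 for Hk2 and −1.35 for Aldoc, while Pfkfb2 had 26.4, against 41.7, and was higher in the CM wells of 3 of 4 animals (exact permutation p 0.375). For Pgam2 in these NCM wells, KO1 was at 25.3% of 87 UMIs, against 93.5, 87.5 and 95.3% in KO2, WT1 and WT2. For Slc2a4 in these CM wells, KO1 was at 11.2% of 179 UMIs, against 63.9, 78.3 and 78.0% in KO2, WT1 and WT2. The share difference of Pgam2 became 55.3 with copies added, and that of Aldoc −0.165 in thinned wells, where Hk2 and Aldoc had exact permutation p 0.25 and 0.375. A replicate block by animal number gave 0 calls for KO minus WT in either fraction. Same-numbered KO and WT animals did not deviate together in NCM wells (correlation −0.004) and did so weakly in CM wells (0.194), so the numbers do not pair them. Where leaving out an animal left 1 in a group, that animal was assumed to vary like the others. Genes with few UMIs, such as Aldoc, Pfkfb1 and Slc2a3, are limited by depth and by single wells.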
